A study of Mus musculus with 14 samples.

Results

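The 44 collagen chain genes of the mouse, those of the 21887 RefSeq protein-coding genes on build GRCm38 whose symbol is Col, a number, the letter a and a number, were read against 14 lists of chromatin immunoprecipitation sequencing (ChIP-seq) peaks from whole kidney. The genes were taken by name and not by any measured value, though earlier results of these data were known when they were chosen. Histone H3 lysine 9 crotonylation (H3K9cr) was mapped in 8 libraries, 2 from each of WT control, ACSS2-/- control, WT UUO and ACSS2-/- UUO kidneys. Histone H3 lysine 9 acetylation (H3K9ac) was mapped in 2 WT UUO, 2 ACSS2-/- UUO, 1 WT control and 1 ACSS2-/- control kidney. UUO is unilateral ureteral obstruction, in which the left ureter is tied off, control mice were sham operated, WT mice were C57BL/6J, and ACSS2-/- mice lacked ACSS2 in all cells rather than in 1 cell type. The mice were 6 to 8 weeks old, and the time from obstruction to these ChIP-seq samples is not given in the sources used here. The labels do not say whether the 2 libraries of a group came from separate mice, so p-values measure only the spread between libraries, which may be technical.

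A collagen molecule is a triple helix of 3 alpha chains, each encoded by its own gene. Fibrillar chains build the tensile fibrils of the interstitium and are the main protein laid down in a scarred kidney, type IV chains form the sheet-like network of basement membranes, and type VI chains form beaded filaments around cells. Acetyl and crotonyl groups on H3K9 are found mostly at the starts of transcribed genes, and ACSS2 makes the acyl-CoA donors for such marks from short-chain fatty acids.

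The measure for a gene was the number of its bases, counted over the gene and 3 kb beyond each end, that lay inside listed peaks, called covered bases here. The lists give peak positions with no height and no read count, so read depth is unknown, and a gene without a listed peak is not shown to lack the mark. H3K9cr lists held 27530 to 45014 peaks over 29.4 to 64.6 Mb and H3K9ac lists 15988 to 32760 peaks over 17.7 to 51.1 Mb. Total cover was 41.7 to 64.6 Mb in control and 29.4 to 44.6 Mb in UUO for H3K9cr, and 34.2 to 51.1 Mb against 17.7 to 30.9 Mb for H3K9ac. Counts of collagen genes called for UUO are therefore given both on the bases as listed and after scaling by each library's total cover. Values of single genes, overlap of groups and permutation tests are on the bases as listed unless called scaled. Chromosome Y peaks were listed in 3 of 4 control and 2 of 4 UUO libraries for H3K9cr, and in 2 of 2 and 1 of 4 for H3K9ac. In 4 lists, all from UUO kidneys, the peak names carry another replicate number than the label. The antibody numbers in the labels rise by 1 from group to group, while the study's methods name 1 antibody for each mark, and whether the groups differed in antibody is not known here. The Acss2 locus held a peak in every library, with 0.76 to 5.85 kb covered, which does not check the knockout because a histone mark does not report the deletion. Kidney identity was visible in the control lists, in which 6 of 6 proximal tubule markers had a peak within 3 kb of a gene end.

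Peaks were unevenly spread over the collagen family. Within 3 kb of a gene end, 10 of the 44 genes had a peak in all 14 libraries, 19 in some libraries and 15 in none. The 10 were the type IV genes Col4a1, Col4a2, Col4a3 and Col4a4, the multiplexins Col15a1 and Col18a1, which are cleaved to anti-angiogenic fragments, the fibrillar genes Col5a1 and Col27a1, the fibril-associated Col16a1 and the transmembrane Col23a1. Over the whole measured span, 9 genes had no peak in any library: Col7a1 of the anchoring fibrils under the epidermis, Col10a1 of hypertrophic cartilage, Col17a1 of the hemidesmosome, Col9a3 and Col11a1 of cartilage fibrils, and Col6a5, Col19a1, Col20a1 and Col28a1. A further 5 genes had a peak in 1 library alone, namely Col2a1 of cartilage, Col6a4, Col9a1, Col11a2 and Col22a1. Per library, 36.4% to 52.3% of collagen genes had an H3K9cr end peak, and 29.5% to 61.4% had an H3K9ac end peak, beside 58.9% to 62.2% and 53.0% to 62.5% of all protein-coding genes.

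**Figure D1:**
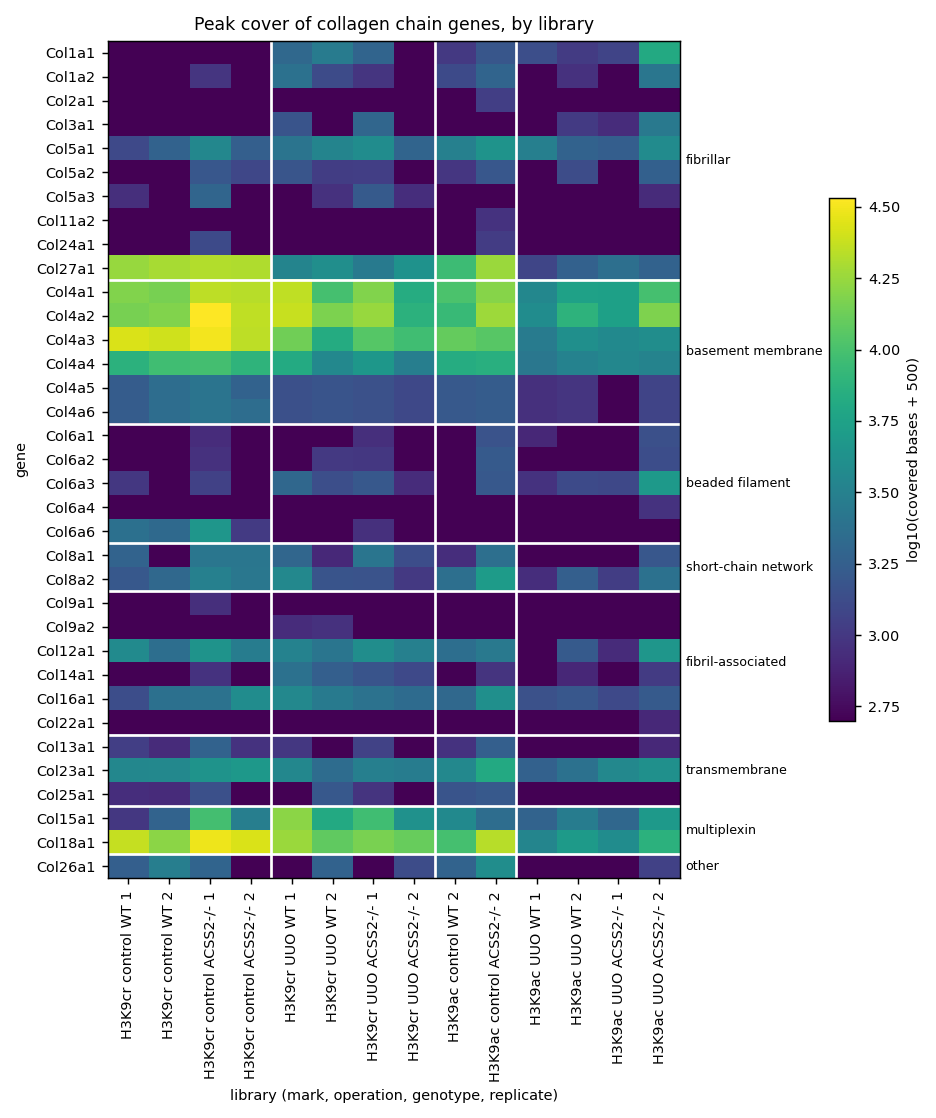
Covered bases of the 35 collagen genes with a peak in at least 1 library, as log10(covered bases + 500), with genes in rows grouped by class and libraries in columns grouped by mark and operation. Type IV, Col18a1 and Col27a1 rows are brightest, the Col27a1 row darkens in every UUO column, and Col1a1 is dark in the 4 H3K9cr control columns.

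The covered bases were not shared equally. Cover was summed gene by gene, so bases shared by neighbouring type IV genes count for each of them and raise the type IV sums. The 6 type IV genes summed to 64.4 to 99.3 kb of H3K9cr cover in the control libraries, the 11 fibrillar genes to 18.4 to 27.1 kb and the 6 type VI genes to 0.527 to 5.51 kb. In UUO the same sums were 26.2 to 66.6 kb, 5.59 to 10.9 kb and 0.353 to 2.37 kb. The type IV ranges of control and UUO therefore overlapped at 64.4 to 66.6 kb, while the fibrillar ranges did not. Without Col27a1, the other 10 fibrillar genes held 1.15 to 6.81 kb in control and 1.81 to 8.57 kb in UUO, ranges that overlap, and their mean sum was higher in UUO (6.26 against 2.83 kb).

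Neighbouring collagen genes share some of these bases. Col4a3 and Col4a4 overlap at their starts and share 6114 measured bases, Col4a1 and Col4a2 share 6085, and Col4a5 and Col4a6 share 4726, so the members of a pair are not independent of each other. Col19a1 and Col9a1 share 1056 bases that held no peak. Mff near the far end of Col4a3, Slc19a1 near Col18a1 and Phykpl near Col23a1 also lie within the measured spans, and the files do not say which gene a peak belongs to.

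UUO was compared with control across both genotypes, a comparison that asks where obstruction changed each mark. For H3K9cr, 29 of the 44 genes had cover in at least 2 libraries and were tested. With limma on log2(covered bases + 500) and Benjamini-Hochberg adjustment over 15009 genes, 2 of the 29 were higher in UUO, against a background of 2.09% of all genes tested, and 6 were lower, against 12%. Scaled by library cover, 8 were higher (Col1a1, Col1a2, Col3a1, Col5a1, Col6a3, Col14a1, Col15a1 and Col16a1) and 4 lower (Col4a3, Col4a4, Col6a6 and Col27a1), against 15.8% and 6.9% of all genes. The median log2 difference of the 29 was -0.05 as listed and 0.39 when scaled, and the medians of all genes were -0.16 and 0.28. Scaling divided the covered bases together with the added 500. It therefore moved every gene of a comparison by the same amount, and libraries without a listed base in a gene also differ after scaling. In the same H3K9cr libraries, end peaks were listed at 1 to 2 of 7 leukocyte markers in control and 6 to 7 of 7 in UUO, with summed cover of 0.867 to 7.13 kb and 11.8 to 33.5 kb. For 6 proximal tubule markers the counts were 6 of 6 in every control library and 2 to 4 in UUO, with 19.7 to 39.2 kb and 3.48 to 8.14 kb, and Slc5a12 had no end peak in any UUO library. For 6 fibroblast and pericyte markers the counts were 3 to 4 in control and 3 to 6 in UUO, with 4.56 to 12.5 kb and 4.44 to 12.5 kb. For 4 endothelial markers they were 3 to 4 in both, with 5.52 to 15.9 kb and 4.47 to 11.8 kb. The part of such shifts in the collagen values was not tested, and in whole kidney fewer cells of a type and less of a mark per cell cannot be told apart.

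**Figure D2:**
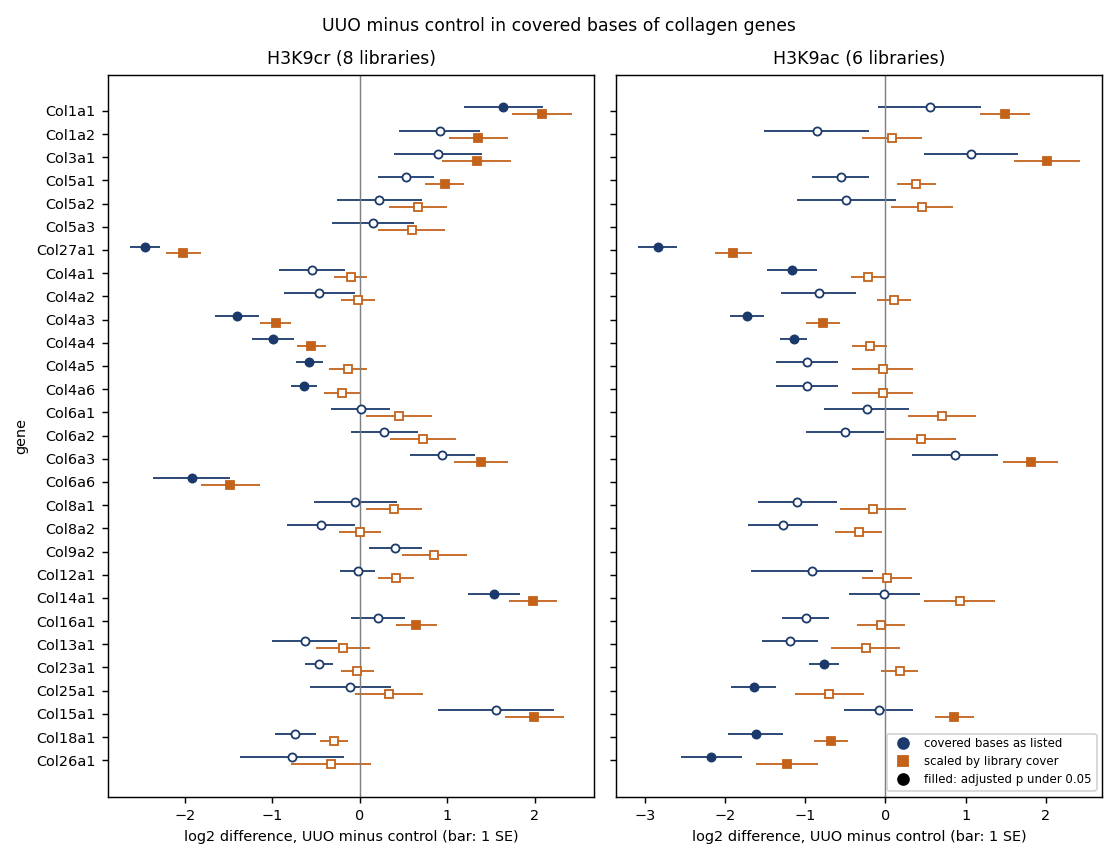
Log2 difference in covered bases (UUO minus control, on the log2(covered bases + 500) scale) for each collagen gene tested, with H3K9cr on the left and H3K9ac on the right. Circles show bases as listed and squares bases scaled by library cover, bars are 1 SE, and filled symbols have a limma adjusted p under 0.05. Scaling moves every gene to the right, and Col27a1 and Col4a3 stay to the left of 0 in both panels on both scales.

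For H3K9cr, Col1a1, Col1a2 and Col3a1 carried few peaks, mostly in UUO libraries. Col1a1, which encodes the major chain of type I collagen (chromosome 11, 94936224 to 94953042, 16.8 kb), had no listed H3K9cr base in any of the 4 control libraries. In UUO it had 1590 and 2415 covered bases in the WT libraries and 1451 and 0 in the ACSS2-/- libraries. The groups thus overlapped through ACSS2-/- UUO replicate 2 alone. The log2 difference was 1.64 ± 0.45 (SE), with a limma adjusted p of 0.0476, a value that depends on the added 500 bases since the control libraries are listed at 0. Col1a1 also entered this test through UUO libraries alone, the group where it is higher. The call was lost without any 1 of the 4 control libraries, either WT UUO library or ACSS2-/- UUO replicate 1 (adjusted p 0.0758 to 0.15), and the exact permutation test over the 70 arrangements of the 8 libraries gave p = 0.143. The peaks lay near the lower-coordinate end of the gene: 3 UUO libraries had one at chr11:94933590-94934519, which overlaps the end of the lncRNA Gm46293, and 3 had one at chr11:94936043-94936776. For H3K9ac, Col1a1 was listed in both control libraries, with 499 and 1053 bases, and in UUO with 888 and 536 in WT and 680 and 6018 in ACSS2-/- kidneys. ACSS2-/- UUO replicate 2 was far above the other 5 H3K9ac libraries.

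Col1a2, the partner chain of type I collagen (chromosome 6, 4505618 to 4541543), was not called for H3K9cr on the bases as listed. Its H3K9cr cover was 0 and 0 bases in WT control, 463 and 0 in ACSS2-/- control, 1920 and 802 in WT UUO and 466 and 0 in ACSS2-/- UUO. Both WT UUO libraries were above the 4 control libraries, ACSS2-/- UUO replicate 1 was above the highest of them by 3 bases, and replicate 2 was at 0. The log2 difference of 0.92 ± 0.46 had an adjusted p of 0.232 as listed and became 1.36 with an adjusted p of 0.00516 when scaled. For H3K9ac, Col1a2 had 791 and 1458 bases in control and 0 and 406 in WT UUO and 0 and 2107 in ACSS2-/- UUO, so the groups overlapped and 3 of the 4 UUO libraries were below both controls. Col3a1, the chain of type III collagen that is laid down with type I in scars (chromosome 1, 45311538 to 45349706), had H3K9cr bases in UUO only, 984 and 0 in WT and 1513 and 0 in ACSS2-/- kidneys, against 0 in all 4 controls. For H3K9ac it was also at 0 in both controls and at 0 and 529 in WT UUO and 360 and 2260 in ACSS2-/- UUO. Its H3K9cr difference was 0.89 ± 0.50 with an adjusted p of 0.278, and 1.34 with an adjusted p of 0.0183 when scaled. In a library listed at 0, the scaled value holds only the added bases divided by library cover. The scaled H3K9cr calls of Col1a2 and Col3a1 rest partly on such libraries. Col3a1 also entered the tests of both marks through UUO libraries alone, the group where it is higher.

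The 300-base RefSeq promoter windows of these 2 genes are shown because their H3K9cr peaks lie within 3 kb of the start, though not all reach the window. Each runs 5′ to 3′ from 250 bases before to 50 after the start, on GRCm38.p6. In every window printed, capitals mark matches on either strand to TATAAA (the TATA box), CCAAT (the CCAAT box), GGGCGG (the GC box), TGANTCA (the AP-1 site) or CCGGAA (the ETS core), letter patterns of which none contains another.
Col3a1, chr1:45311288-45311587, plus strand: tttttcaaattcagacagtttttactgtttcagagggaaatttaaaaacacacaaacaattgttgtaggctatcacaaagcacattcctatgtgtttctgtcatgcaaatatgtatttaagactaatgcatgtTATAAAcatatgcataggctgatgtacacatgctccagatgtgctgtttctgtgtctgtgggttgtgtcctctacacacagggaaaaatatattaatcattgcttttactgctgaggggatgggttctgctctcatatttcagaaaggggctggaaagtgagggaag
Col1a2, chr6:4505368-4505667, plus strand: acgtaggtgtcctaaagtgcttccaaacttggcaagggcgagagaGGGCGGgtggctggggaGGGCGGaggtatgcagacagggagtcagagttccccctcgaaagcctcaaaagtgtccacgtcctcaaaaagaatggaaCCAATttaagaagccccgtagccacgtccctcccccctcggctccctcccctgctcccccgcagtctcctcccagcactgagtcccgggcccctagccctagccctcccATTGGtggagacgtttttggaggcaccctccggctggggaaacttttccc
The Col3a1 window held 1 TATAAA and no CG dinucleotide, at 37.7% G and C, and a peak reached it in 2 UUO H3K9cr libraries and 1 UUO H3K9ac library. The Col1a2 window held 2 CCAAT and 2 GGGCGG matches and 13 CG dinucleotides, and a peak reached it in 1 UUO H3K9cr and 2 control H3K9ac libraries. Of 21263 promoter windows of protein-coding genes, 12.6% held TATAAA, 38.2% CCAAT, 46.2% GGGCGG, 6.99% TGANTCA and 18.7% CCGGAA. Of the 38 windows of 35 collagen genes in the table, 5, 13, 23, 1 and 0 did. Such matches describe the letters and do not show a bound factor.

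Col14a1, which encodes a fibril-associated chain that sits on the surface of type I fibrils (chromosome 15, 55307644 to 55520803), rose in H3K9cr. Its H3K9cr cover was 0, 0, 427 and 0 bases in the control libraries (WT 1 and 2, then ACSS2-/- 1 and 2, the order used from here on) and 1905, 1294, 993 and 777 in UUO. Each UUO library was above each control library. The log2 difference was 1.54 ± 0.29 with a limma adjusted p of 0.0122, and the call held without any 1 of the 8 libraries. It was lost among the 15988 longest peaks of each list (0.73, adjusted p = 0.335). The exact permutation p was 0.0286, the smallest that 70 arrangements can give, and 0.142 after Benjamini-Hochberg adjustment. At chr15:55307715-55308707, just inside the lower-coordinate end of the gene, a peak was listed in 4 of 4 UUO and 0 of 4 control H3K9cr libraries. It was the only such region among the 222 merged H3K9cr regions in collagen genes, and 0.528% of 71205 regions over the genome had that pattern. For H3K9ac, Col14a1 had 0 and 441 bases in control and 0, 306, 0 and 548 in UUO, so the acetyl mark overlapped between groups (log2 difference -0.02, adjusted p = 0.974).

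Col15a1, a multiplexin of the basement membrane zone around vessels (chromosome 4, 47207655 to 47313167), was called for H3K9cr only after scaling. Control libraries held 492, 1410, 9131 and 2561 bases and UUO libraries 15946, 5986, 8796 and 3707. ACSS2-/- control replicate 1, the list with most cover in all, exceeded 3 of the UUO libraries. The log2 difference was 1.56 ± 0.66 (adjusted p = 0.16) as listed, and larger with an adjusted p of 0.000153 when scaled. Peaks inside the gene, away from both ends, averaged 1931 bases in control and 5426 in UUO. One of these stretches, chr4:47291217-47294748, lies 85.3 kb beyond the gene's start and held a peak in 4 of 4 UUO and 1 of 4 control libraries. It was covered in no H3K9ac library, and H3K9ac cover of the gene averaged 2482 ± 1001 bases (SD, n = 2) in control and 2440 ± 1358 (n = 4) in UUO. Both marks were listed within 3 kb of a Col15a1 end in all 14 libraries.

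Col27a1 fell in both marks. It encodes a fibrillar chain of cartilage and other tissues (chromosome 4, 63214009 to 63334991, plus strand). For H3K9cr, control libraries held 17254, 18935, 20308 and 20137 covered bases and UUO libraries 2876, 3537, 2298 and 3775. No UUO library came near a control library, and the mean fell from 19158 ± 1409 to 3122 ± 668 bases (SD, n = 4 each), 0.163 of the control mean. The log2 difference was -2.46 ± 0.17 with a limma adjusted p of 0.000835, and -2.02 with an adjusted p of 1.78e-07 when scaled. For H3K9ac it had 8496 and 17392 bases in control and 715, 1341, 1829 and 1393 in UUO, a log2 difference of -2.84 ± 0.24 (adjusted p = 0.0113). That H3K9ac call rested on both control libraries, since the adjusted p was 0.106 without the WT and 0.173 without the ACSS2-/- one.

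Most of the bases lost in Col27a1 lay inside the gene, more than 3 kb from its ends. Within 3 kb of the gene's ends, H3K9cr cover averaged 2135 bases in control and 1430 in UUO, and in between it averaged 17024 and 1691. Counting the ends alone gave a log2 difference of -0.45 (adjusted p = 0.0859). For H3K9ac the ends averaged 2602 bases in control and 1118 in UUO, and the ends alone were still called (-0.93, adjusted p = 0.0369). The merged region at the start, chr4:63214841-63224203, held a peak in all 8 H3K9cr libraries, with a mean of 7106 covered bases in control and 1575 in UUO. It reaches farther than 3 kb into the gene, and several control libraries list more than 1 peak within it. The next stretch, chr4:63224459-63227918, was covered in 4 of 4 control and 0 of 4 UUO libraries for H3K9cr and in 2 of 2 and 0 of 4 for H3K9ac. Peaks ran from the start into the first 25.4 kb of the gene in control kidneys, as the map of peaks along the gene shows.

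**Figure D3:**
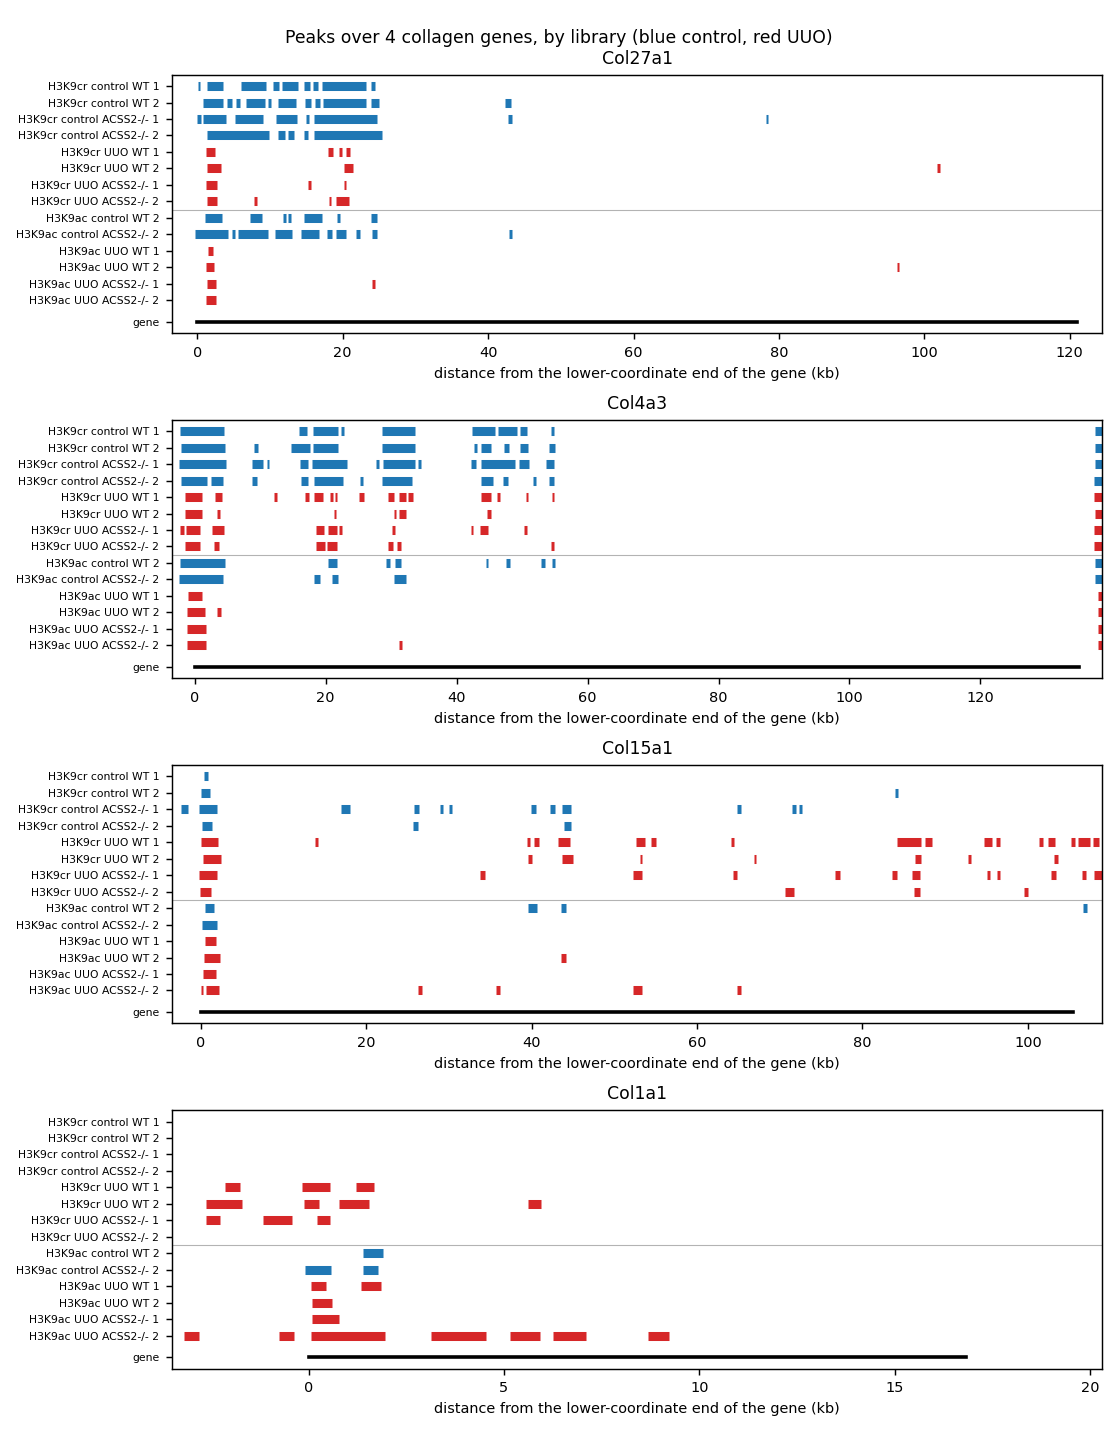
Listed peaks along Col27a1, Col4a3, Col15a1 and Col1a1, as distance in kb from the lower-coordinate end of each gene, with 1 row for each library (blue, control; red, UUO; H3K9cr above the grey line, H3K9ac below) and the gene as a black bar. Control rows of Col27a1 and Col4a3 hold many wide peaks where UUO rows hold few, Col15a1 shows red peaks in its far part, and Col1a1 has no blue H3K9cr peak.

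Of the 6 basement membrane genes, 4 fell in H3K9cr with UUO as listed, and Col4a3 and Col4a4 also when scaled. Col4a3, Col4a4 and Col4a5 encode the chains of the mature glomerular and distal tubular network, and Col4a1 and Col4a2 the chains found in nearly all basement membranes. Col4a3 (chromosome 1, 82586921 to 82722059) had H3K9cr cover of 26301, 24405, 30805 and 21637 bases in control and 13152, 6159, 10726 and 8787 in UUO. The groups did not overlap, with a log2 difference of -1.40 ± 0.25 (adjusted p = 0.00961) as listed and -0.96 (adjusted p = 0.00031) when scaled. Its H3K9ac cover was 12107 and 10893 bases in control and 2370, 3555, 3216 and 3486 in UUO (log2 difference -1.73 ± 0.21, adjusted p = 0.0118). As in Col27a1, much of the difference was inside the gene, where H3K9cr cover averaged 19989 bases in control and 6287 in UUO, against 5798 and 3419 near the ends. The H3K9ac call was lost without either control library (adjusted p 0.112 and 0.178).

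Col4a4 (chromosome 1, 82448419 to 82587034, minus strand), which shares its start region with Col4a3, had 7052, 8833, 9119 and 7253 H3K9cr bases in control and 6090, 3082, 4162 and 2537 in UUO. The log2 difference was -0.99 ± 0.24 (adjusted p = 0.029), and -0.55 (adjusted p = 0.0197) when scaled. Its start held a peak in all 14 libraries, and the merged region there, chr1:82584461-82591625, averaged 6630 H3K9cr bases in control and 3601 in UUO. A shift of the span from 3 kb to 1 kb beyond the ends gave -0.70 (adjusted p = 0.113), and the call was lost in 6 of 8 fits that each left out 1 library, those without WT control replicate 2, either ACSS2-/- control, WT UUO replicate 2 or either ACSS2-/- UUO library (adjusted p 0.0573 to 0.0926).

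Col4a5 and Col4a6, head to head on the X chromosome, share the peaks around their starts. Col4a5 had 1215, 1747, 2023 and 1390 H3K9cr bases in control and 891, 1004, 919 and 749 in UUO, and Col4a6 had the same values but for 1759 in ACSS2-/- control replicate 2. Each UUO library was below each control library. The log2 differences were -0.58 ± 0.16 (adjusted p = 0.0438) and -0.64 ± 0.15 (adjusted p = 0.0255) as listed, and -0.14 and -0.20 (adjusted p = 0.633 and 0.47) when scaled. The Col4a5 call was lost in 7 of 8 fits without 1 library, all but that without WT control replicate 1 (adjusted p 0.0669 to 0.117), and the Col4a6 call in 5, those without WT control replicate 2 or any ACSS2-/- library (adjusted p 0.0556 to 0.0759).

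Col4a1 and Col4a2 showed no call for H3K9cr. Their cover was 14735, 13739, 21895 and 21082 bases in control and 22256, 9282, 14651 and 6331 in UUO for Col4a1. For Col4a2 it was 13893, 14708, 33468 and 22036 in control and 23320, 14212, 17122 and 7081 in UUO. WT UUO replicate 1 exceeded every control library at Col4a1, and the groups overlapped at both genes (log2 differences -0.55 and -0.46, adjusted p = 0.382 and 0.5). For H3K9ac, Col4a1 had 9859 and 15297 bases in control and 3032, 5109, 4987 and 9308 in UUO. That difference of -1.16 ± 0.31 had an adjusted p of 0.0461, and was -0.22 with an adjusted p of 0.417 when scaled. The bidirectional promoter of the pair was reached by a peak in all 14 libraries.

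**Figure D4:**
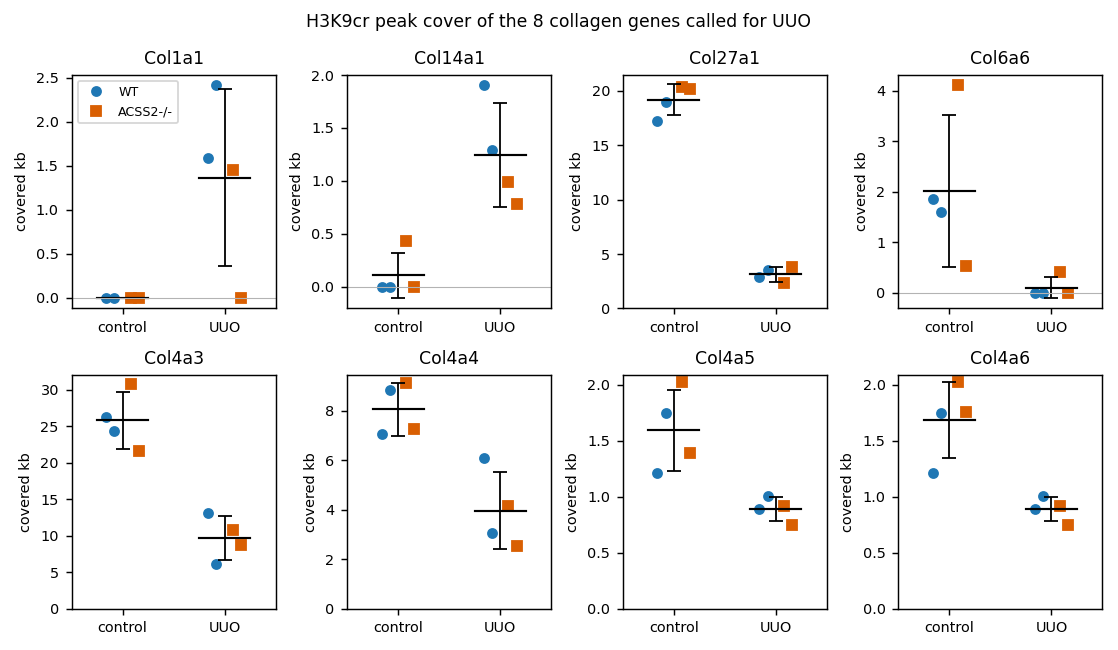
H3K9cr covered kb of the 8 collagen genes with a limma adjusted p under 0.05 for UUO on bases as listed, for control and UUO libraries, with 1 point for each library (circles, WT; squares, ACSS2-/-), a line at the mean and a bar of 1 SD (n = 4). Col27a1, Col6a6, Col4a3, Col4a4, Col4a5 and Col4a6 points are lower in UUO without overlap, Col14a1 points are higher without overlap, and 1 of 4 Col1a1 UUO points lies at 0 with the controls.

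The promoter windows of 3 genes whose starts were covered in 13 or all 14 libraries are given for contrast with the sparsely covered Col3a1 and Col1a2.
Col27a1, chr4:63215162-63215461, plus strand: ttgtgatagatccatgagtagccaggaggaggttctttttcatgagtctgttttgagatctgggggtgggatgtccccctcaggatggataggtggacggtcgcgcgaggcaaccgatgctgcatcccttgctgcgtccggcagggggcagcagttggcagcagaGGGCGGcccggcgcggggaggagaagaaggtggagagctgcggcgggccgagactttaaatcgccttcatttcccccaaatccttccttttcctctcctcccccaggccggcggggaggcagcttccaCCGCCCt
Col4a4, chr1:82586800-82587099, minus strand: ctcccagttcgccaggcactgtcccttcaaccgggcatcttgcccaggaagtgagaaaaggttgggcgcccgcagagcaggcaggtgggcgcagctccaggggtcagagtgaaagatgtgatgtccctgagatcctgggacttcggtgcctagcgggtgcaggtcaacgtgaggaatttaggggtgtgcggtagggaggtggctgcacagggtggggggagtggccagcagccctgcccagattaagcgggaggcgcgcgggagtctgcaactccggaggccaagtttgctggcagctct
Col4a1, chr8:11312777-11313076, minus strand: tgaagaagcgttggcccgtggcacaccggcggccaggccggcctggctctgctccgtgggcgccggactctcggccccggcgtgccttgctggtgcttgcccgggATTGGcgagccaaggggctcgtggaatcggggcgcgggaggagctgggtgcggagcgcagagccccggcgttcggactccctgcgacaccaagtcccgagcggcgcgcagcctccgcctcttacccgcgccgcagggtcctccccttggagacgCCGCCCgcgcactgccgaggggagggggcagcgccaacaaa
The Col27a1 window was reached by a peak in 13 libraries and the Col4a4 and Col4a1 windows in 14. They held 18, 14 and 37 CG dinucleotides at 61.7%, 63.3% and 74.0% G and C, and none held TATAAA. Among the collagen genes in the promoter table, the median number of CG dinucleotides was 24 for 9 genes with an end peak in all libraries, 11.5 for 14 genes with one in some libraries and 7.5 for 12 genes with one in none, against 13 for 17492 protein-coding genes. TATAAA was found in 0 of the 9, 3 of the 14 and 2 of the 12.

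Col6a6, a type VI chain gene that fell in H3K9cr (chromosome 9, 105689417 to 105828246), had 1854, 1597, 4106 and 527 H3K9cr bases in control and 0, 0, 404 and 0 in UUO, and no H3K9ac peak in any library. The groups did not overlap (log2 difference -1.92 ± 0.44, adjusted p = 0.0235), and the call was lost without WT control replicate 1 or 2, WT UUO replicate 2 or ACSS2-/- UUO replicate 2 (adjusted p 0.0588 to 0.0713). The bases lay inside the gene: none of its peaks was within 3 kb of an end, and chr9:105745288-105748364, 81.4 kb beyond the start, was covered in 4 of 4 control and 0 of 4 UUO libraries. Of the 222 merged collagen regions, 5 had that pattern, or 2.25%, and 1.87% of all 71205 regions did. Beside those in Col27a1 and Col6a6 they were 1 each in Col12a1, Col18a1 and Col23a1, named for being 5 in number and not by any rule.

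At Col23a1, a transmembrane collagen (chromosome 11, 51289679 to 51583925), the region was the start itself, chr11:51289311-51290491, with a mean of 810 bases in H3K9cr control libraries and no base in UUO ones. The same start was listed in 2 of 2 control and 2 of 4 UUO libraries for H3K9ac. The promoter window is shown because a peak reached it in 4 control and 0 UUO H3K9cr libraries.
Col23a1, chr11:51289670-51289969, plus strand: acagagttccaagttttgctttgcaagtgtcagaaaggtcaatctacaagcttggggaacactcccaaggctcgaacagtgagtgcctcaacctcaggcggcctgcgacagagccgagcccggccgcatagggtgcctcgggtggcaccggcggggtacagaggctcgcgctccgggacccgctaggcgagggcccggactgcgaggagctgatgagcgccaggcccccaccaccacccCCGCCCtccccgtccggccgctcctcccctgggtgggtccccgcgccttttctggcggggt
The window held 1 GGGCGG match and 24 CG dinucleotides. Over the whole gene, which also holds a peak at its far end beside Phykpl in all 8 H3K9cr libraries, cover was 3012, 3105, 3891 and 4239 bases in control and 3025, 1728, 2606 and 2446 in UUO (log2 difference -0.47 ± 0.16, adjusted p = 0.0892).

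The remaining genes did not pass the test for H3K9cr as listed. Col6a3, a type VI chain and the largest of the 3 chains of its usual trimer, had 493, 0, 632 and 0 bases in control and 1557, 883, 1093 and 353 in UUO (log2 difference 0.95 ± 0.38, adjusted p = 0.136; scaled 1.39, adjusted p = 0.0018). Only ACSS2-/- UUO replicate 2 lay within the control range. The control libraries listed at 0 enter the scaled Col6a3 call through the added bases alone. Col5a1, which initiates type I fibrils, had 763 to 3020 bases in control and 1439 to 3389 in UUO, and its scaled difference of 0.97 was called while the listed one of 0.53 was not. Col16a1 was likewise called on the scaled values alone, with 848 to 3399 bases in control and 1670 to 3099 in UUO. Col18a1, the source of endostatin, had 15795 to 29810 bases in control and 11560 to 17384 in UUO (log2 difference -0.74 ± 0.23, adjusted p = 0.0752). Col12a1, a fibril-associated chain, kept 1795 to 3901 bases in control and 2081 to 3453 in UUO. Col8a1, a short-chain network collagen of vessels, had 0 to 2134 and 314 to 2066. Col6a1 and Col6a2, the partners of Col6a3, were listed in 1 of 4 control libraries each and in 1 and 2 of 4 UUO libraries.

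For H3K9ac, 26 collagen genes were tested and 0 were higher and 8 lower in UUO, against 0.198% and 20% of 14114 genes. Scaled by library cover, 4 were higher (Col1a1, Col3a1, Col6a3 and Col15a1) and 4 lower (Col27a1, Col4a3, Col18a1 and Col26a1), against 17.9% and 4.63% of all genes. The 8 lower genes as listed were Col27a1, Col4a3, Col4a4, Col4a1, Col18a1, Col23a1, Col25a1 and Col26a1. Col18a1 had 9266 and 21101 bases in control and 2910, 4464, 3411 and 7076 in UUO (log2 difference -1.62 ± 0.35, adjusted p = 0.0285). Col25a1, a transmembrane collagen found in amyloid plaques, had 1006 and 1114 bases in control and 0 in all 4 UUO libraries, and Col26a1 had 1426 and 3456 bases in control and 0, 0, 0 and 629 in UUO (adjusted p = 0.0188 and 0.02). Col25a1 thus entered this test through control libraries alone, the group where it is higher. Col23a1 had 3107 and 5977 bases in control and 1352, 1909, 3060 and 3647 in UUO, so that its groups overlapped, and its log2 difference went from -0.76 to 0.18 when scaled. With either control library left out, 7 of the 8 calls were lost, and Col25a1 could not be tested because it then had cover in 1 library alone. Without WT UUO replicate 1 there were 2 calls, and the share of all genes called in that fit is not given here.

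The genotypes were compared within UUO kidneys, which asks whether ACSS2 deletion changed the marks under obstruction. By limma, 0 of 29 collagen genes for H3K9cr and 0 of 26 for H3K9ac had an adjusted p under 0.05, and 0% of all genes did for either mark. At an unadjusted p under 0.05 there were 2 for H3K9cr, Col1a2 and Col9a2, both lower in ACSS2-/-, and 1 for H3K9ac, Col23a1, higher in ACSS2-/-, against 7.22% and 5.59% of all genes. Col9a2 had H3K9cr cover in the 2 WT UUO libraries alone, so it entered the test only through the group where it is higher. The Col1a2 bases given above, 1920 and 802 in WT UUO and 466 and 0 in ACSS2-/- UUO, gave a log2 difference of -1.35 ± 0.49 (adjusted p = 0.641). For Col1a1 the difference was -1.32 ± 0.59 (adjusted p = 0.732), and for Col3a1 0.22 ± 0.74 (adjusted p = 0.994). The intervals that these standard errors give are wide, and with 2 libraries a group equal cover in the genotypes is not shown. Leaving out ACSS2-/- UUO replicate 1 changed the H3K9ac result. That fit has 1 ACSS2-/- UUO library and no share of all genes to set beside it, so it is not read as a collagen result.

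In control kidneys ACSS2-/- and WT were compared for H3K9cr alone, since H3K9ac has 1 control library of each genotype. Again 0 of 29 genes were called by limma, against 0% of all genes, and 3 had an unadjusted p under 0.05, Col5a2, Col15a1 and Col16a1, all higher in ACSS2-/-, against 12.4% of all genes. The list of ACSS2-/- control replicate 1 had the most cover of all 14. The test of whether the UUO difference itself depended on genotype called 0 of 29 (0% of all genes), with 6 at an unadjusted p under 0.05: Col5a2, Col8a2, Col15a1, Col16a1, Col1a2 and Col4a2, all with a smaller or more negative UUO difference in ACSS2-/-, against 13% of all genes. When scaled there were 5, of which 1 went in the other direction, against 8.74% of all genes. The median interaction over all genes was -0.32 as listed and 0.30 when scaled, and over the 29 collagen genes -0.44 and 0.18. Col15a1 shows the pattern in its bases, as its UUO difference was 2.91 ± 0.72 in WT and 0.20 ± 0.72 in ACSS2-/- kidneys (interaction -2.70, adjusted p = 0.359).

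Presence of a peak within 3 kb of a gene end was also compared without regard to its width. From control to UUO, no collagen gene gained an end peak (4 of 4 UUO and 0 of 4 control H3K9cr libraries) and none lost one, where 0.434% and 0.27% of all 21887 genes did. Within UUO, 0.292% of all genes had an end peak in both ACSS2-/- and neither WT library, and 0.658% in both WT and neither ACSS2-/- library. The collagen genes had 0 of the former kind and 1 of the latter, Col9a2 of cartilage, with 357 and 406 bases in WT UUO and none elsewhere. By the exact permutation test of covered bases in UUO and control, 1 collagen gene of 29 was higher (Col14a1) and 6 were lower without overlap (Col27a1, Col6a6, Col4a3, Col4a4, Col4a5 and Col4a6), against 2.51% and 17.6% of genes. Each had an exact p of 0.0286, the smallest possible, and 0.142 after adjustment.

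The marks were compared over all 14 libraries as the mean of the 4 genotype and operation groups. The paper states that both marks were mapped in the same samples, while the fit treats the 14 libraries as independent. Of 30 collagen genes tested, 4 had more H3K9cr than H3K9ac cover and 0 less, against 12% and 4.85% of 15272 genes. They were Col4a3 (log2 difference 1.28 ± 0.19, adjusted p = 0.00388), Col18a1 (1.14 ± 0.21, adjusted p = 0.00849), Col27a1 (0.82 ± 0.14, adjusted p = 0.0076) and Col6a6 (1.17 ± 0.33, adjusted p = 0.0403). Scaled by library cover, 3 were higher and 9 lower, against 6.31% and 54% of all genes, and Col27a1 was no longer called. Counting gene ends alone, Col4a3, Col18a1 and Col27a1 were not called (Col4a3 0.10, limma adjusted p = 0.445), so their excess of H3K9cr cover was not seen at their ends. Col6a6 had no end peak in any library and could not be tested there. The Col6a6 call was lost in 9 of 12 fits without 1 library (adjusted p 0.0577 to 0.0832), those without either WT control H3K9cr library, any UUO H3K9ac library, either WT UUO H3K9cr library or ACSS2-/- UUO H3K9cr replicate 1.

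Genes whose products modify, process or bind collagen were read beside its chains. Of 38 such genes 35 were tested for H3K9cr, and 0 were higher and 4 lower in UUO as listed, against 2.09% and 12% of all genes: P3h2 and Crtap, which act in prolyl hydroxylation (log2 differences -1.58 and -1.11, adjusted p = 0.0051 and 0.0158), the lysyl hydroxylase Plod2 (-0.70, adjusted p = 0.0283) and the propeptidase enhancer Pcolce2 (-1.59, adjusted p = 0.0295). When scaled, 6 were higher and 3 lower, against 15.8% and 6.9%. Their median log2 difference was -0.12, beside -0.05 for the collagen genes and -0.16 for all genes.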

How the data were processed

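Peak lists of 14 kidney ChIP-seq libraries were used. Per the study's methods and the labels, the authors aligned reads to mm10 (GRCm38) with Bowtie2, dropped low-quality, organelle and duplicate reads and called peaks for each library with MACS2; versions and the MACS2 control are not given in the sources used here. The deposited values are peak positions (1-based here), without a score, signal or read count, so the count test of the study could not be used. Covered bases were computed in Python 3.11.15. limma 3.58.1 (R 4.3.3, eBayes with trend) was fitted to log2(covered bases + 500) for genes covered in at least 2 libraries, with Benjamini-Hochberg adjustment over all of them and calls at an adjusted p under 0.05. UUO was fitted with genotype as a covariate, other contrasts with 1 mean for each group. Code was tested on simulated data. The members, lists and tests were chosen with earlier results of these data known. Named genes are those called, gained or lost, a list of chains chosen by role, those with no peak, and at most 4 called collagen-processing genes in each direction. Merged H3K9cr regions and the promoters shown were chosen after the values were seen. Alternatives were gene ends alone, 1 kb flanks, scaling by library cover, the 15988 longest peaks of each list, 100 added bases, no filter, each library left out and a replicate block.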

Additional observations from a re-analysis of the deposited data

Results flagged for a closer look

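Col5a2, a chain of the type V collagen that copolymerizes with type I, stood out because its H3K9cr cover moved in opposite directions in the genotypes. In WT kidneys it went from 0 and 0 bases in control to 1012 and 579 in UUO, and in ACSS2-/- kidneys from 1063 and 719 in control to 593 and 0 in UUO. Every WT library rose above, and every ACSS2-/- library fell below, the controls of its genotype. The interaction was -2.25 ± 0.57 on the log2(covered bases + 500) scale, with an adjusted p of 0.283 by limma over 15009 genes, and -1.63 with an adjusted p of 0.531 when scaled by library cover. The difference therefore did not pass the correction, and all of it rests on 1 region of 1123 bases at the higher-coordinate end of the gene. With 1 or 2 libraries in each group, single libraries were not tested as outliers.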

How the results depend on the processing

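The 8 collagen genes called for UUO in H3K9cr became 3 with gene ends alone, 3 with the longest peaks and 2 with no filter, and 3 to 8 with 1 library left out. Added after seeing the data, the libraries with chromosome Y peaks gave 1 and those whose peak names match their label gave 4. The 8 called in H3K9ac became 4 with no filter, 0 to 11 with 1 library left out and 4 without the lists whose peak names carry another number. For ACSS2 deletion in UUO the 0 calls became 1 in H3K9cr with no filter and 0 to 4 in H3K9ac with 1 library left out, and the 0 calls of the interaction became 1 with no filter. The 4 genes with unequal marks became 0 with gene ends alone, 12 when scaled and 3 to 7 with 1 library left out. Of gained or lost end peaks, the count in UUO was 0 to 1 with 1 library left out, and that for ACSS2 deletion was 2 with the longest peaks and 2 to 4 with 1 library left out. Col23a1 in H3K9ac turned from -0.76 to 0.18 when scaled, and Col18a1 between marks from 1.14 to -0.17 with gene ends alone. The cause was not tested in any of these. Except for the scaled fit, the share of all genes under these settings, or under the replicate block, is not given here. A changed count is therefore not read as a result about collagen genes. Col6a6 had no peak near a gene end, so the fits of gene ends alone could not call it.

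The replicate block gave 7 collagen genes for UUO in H3K9cr and 6 in H3K9ac. Col1a1 and Col4a5 in H3K9cr and Col23a1 and Col4a1 in H3K9ac were no longer called. Col6a3 was called in H3K9cr under the block (log2 difference 0.95, limma adjusted p = 0.0278), as it was when scaled but not in the main fit. The block gave 3 genes for unequal marks, without Col6a6, and 0 for each genotype contrast. Deviations of same-numbered libraries from their group means correlated at -0.119 to 0.143 within a mark. Between the marks they correlated at -0.251 in ACSS2-/- UUO and 0.0047 in WT UUO. The numbers were thus not shown to pair the libraries. For the control kidneys (-0.119), crossing the numbers also gave 0 calls. Comparison of marks could not be given without either H3K9ac control library. Peak lists hold no depth, and 2 libraries a group and 1 in each H3K9ac control limit every genotype contrast.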
